A study of Mus musculus with 3 samples.

Results

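Genes of glycolysis, of the pentose phosphate, hexosamine and polyol branches, and of pyruvate entry into mitochondria were examined in glomeruli of nondiabetic mice. The genes were taken from a list of 44, and a gene was matched when the platform annotation gave a probe set with that gene's symbol alone. Of the 44 genes, 38 were matched by 89 probe sets, out of 18194 genes on the array with such a probe set. The other 6, Gpi1, Eno1, Pfkfb1, G6pdx, Sord and Akr1b3 (also searched as Akr1b1), were not analysed here. For the polyol pathway, which turns glucose into sorbitol and then fructose, both enzymes are therefore without a value, and only Khk, the next enzyme of fructose use, was measured.

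The 3 samples were male FVB/NJ mice aged 8 weeks, labelled nondiabetic controls, fed rodent chow, with 1 array for each mouse (n = 3). The series was designed to set diabetic OVE26 mice against FVB mice, and the OVE26 animals were not analysed here, so there is 1 group and no comparison of conditions. RNA came from glomeruli isolated from each animal, and the sources used here do not say how they were isolated. All values are log2 expression on Affymetrix mouse whole-genome arrays, where a probe set is a group of short probes against the 3′ part of a transcript. Probe sets differ in how strongly they bind, so levels are compared between mice and never between genes.

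Glycolysis splits glucose into pyruvate, and its slow steps are hexokinase, phosphofructokinase and pyruvate kinase. The pentose phosphate branch yields NADPH and ribose, the hexosamine branch yields the sugar nucleotide used to tag proteins with O-linked N-acetylglucosamine, and pyruvate dehydrogenase commits pyruvate to oxidation unless its kinases (Pdk1 to Pdk4) switch it off. In diabetic kidney disease these branches are studied as outlets for excess glucose, so values from control mice are a baseline. Txnip, which encodes a thioredoxin-binding protein, is known as one of the genes most responsive to glucose.

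Most of the pathway was measured, and its median spread between mice was below that of all genes. A probe set counted as above background when it exceeded, on each array, the 95th percentile of the 80 probe sets that read odorant and vomeronasal receptor genes (2.58, 2.91 and 2.86 in mice 1, 2 and 3). By that rule 33 of the 38 matched genes (86.8%) were above background in all 3 mice, against 58.3% of all genes. Where a gene had several probe sets the one with the highest mean stood for it. The median SD over mice was 0.12 for the 33 genes, with quartiles of 0.072 and 0.23, and 0.16 for all 10610 genes above background. The spread was smaller at higher levels for all genes, and 16 of the 33 fell in the highest tercile of level. Among these 16 the median SD was 0.078, against 0.11 for all genes there, and among the 9 in the lowest tercile it was 0.26, against 0.23.

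**Figure D1:**
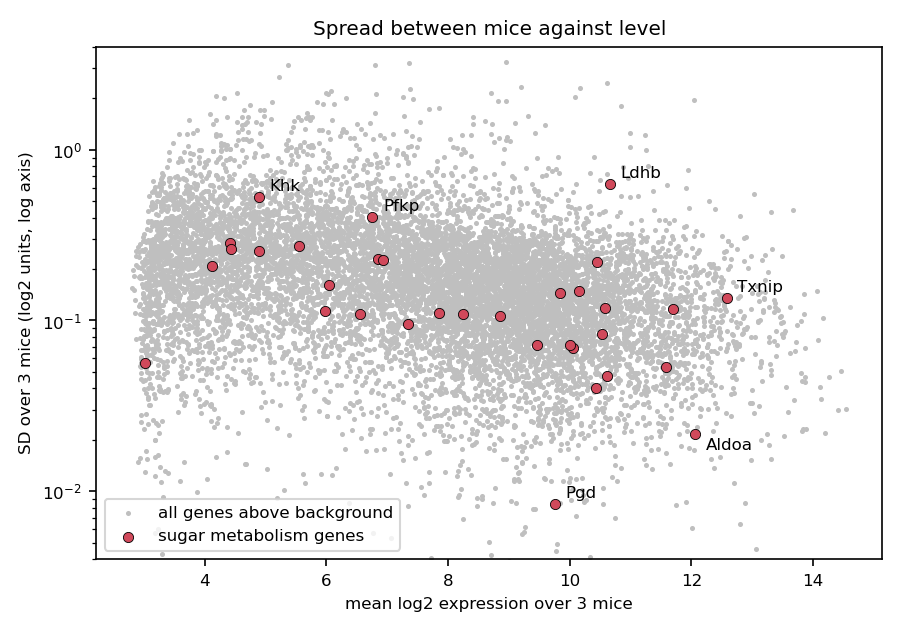
The SD over 3 mice (vertical, log axis) is plotted against the mean log2 expression (horizontal) for 10610 genes above background (grey) and the 33 sugar metabolism genes (red), leaving out the few genes with an SD under the axis limit. Ldhb and Khk had the largest SDs of the red points, at 0.63 and 0.53, and Pgd the smallest, at 0.0084.

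Differences of 2-fold or more between the highest and the lowest mouse were found for 1 of the 33 genes (Ldhb), against 5.94% of all genes above background. A 1.5-fold difference was reached by 3 of the 33 genes (Ldhb, Khk and Pfkp), against 18.1% of all genes. Variance between mice was tested with limma, setting each gene against the spread fitted over all 10610 genes, with Benjamini-Hochberg adjustment. The test called none of the 33 genes and none of all genes (0%). At an unadjusted p under 0.05 it listed 1 of the 33 (Ldhb) and 493 of all genes (4.65%). With 3 arrays the test could call very little. Zbtb16, a gene outside the members, had the widest range of all genes tested, at 80.5-fold. Even so its adjusted p in limma's test was 0.47. The lack of calls therefore says nothing of the members, and a p above the threshold does not show that a gene is stable.

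Upstream sequences of a few members are shown for reference, since Ldha and Ldhb are an isozyme pair with unlike spreads and Txnip is the glucose-responsive member. Each is the 250 bases before the RefSeq transcription start (GRCm38.p6), written on the gene's strand in lower case. Capitals mark matches, on either strand, to ACGTG or to CACGNGNNNNNCNCGNG. ACGTG is a form of the core bound by hypoxia-inducible factors, and other forms such as GCGTG were not searched. The longer one is a pattern of the carbohydrate response element read by MondoA and ChREBP. The Txnip sequence lies at chr3:96557707-96557956 on the plus strand, the Ldha sequence at chr7:46845554-46845803 on the plus strand and the Ldhb sequence at chr6:142507958-142508207 on the minus strand.
Txnip: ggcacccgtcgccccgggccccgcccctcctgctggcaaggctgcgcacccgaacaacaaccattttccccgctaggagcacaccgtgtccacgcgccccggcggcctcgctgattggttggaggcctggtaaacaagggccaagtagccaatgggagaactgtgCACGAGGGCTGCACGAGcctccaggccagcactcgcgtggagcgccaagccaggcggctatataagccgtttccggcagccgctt
Ldha: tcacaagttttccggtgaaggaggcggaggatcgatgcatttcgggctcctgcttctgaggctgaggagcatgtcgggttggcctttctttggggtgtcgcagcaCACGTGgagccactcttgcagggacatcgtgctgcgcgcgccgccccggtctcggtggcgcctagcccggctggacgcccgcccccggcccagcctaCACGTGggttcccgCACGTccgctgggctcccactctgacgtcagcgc
Ldhb: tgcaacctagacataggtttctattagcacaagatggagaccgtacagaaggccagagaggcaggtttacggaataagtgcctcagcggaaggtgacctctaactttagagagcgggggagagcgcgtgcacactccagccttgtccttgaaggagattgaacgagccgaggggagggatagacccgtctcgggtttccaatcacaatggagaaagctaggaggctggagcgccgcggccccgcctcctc

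The Txnip sequence held 1 match to the carbohydrate response pattern, with its first base at position −85 from the start site, and none to ACGTG. Over all 32851 promoter windows of the RefSeq table (300 bases each, the 250 shown plus the next 50) this pattern occurred in 0.365%, and among the members with a window Txnip was the only gene with it. The Ldha sequence held 3 stretches with ACGTG. Of its matches some overlap on both strands, and a second Ldha start in the table had none within its 250 bases. No match to either pattern lay in the Ldhb sequence. ACGTG was found for 21 of the 42 members with a window, or 39.7% of their windows against 19.6% of all windows. These are matches of letters, and binding was not measured.

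At the entry into glycolysis a single hexokinase gene was measurable. Hk1, the broadly expressed form bound to mitochondria, was at 9.74, 10 and 9.77 in mice 1, 2 and 3. Hk2, the insulin-responsive form of muscle and fat, was below background in every mouse (1.94, 2.01 and 2.01). Hk3, a form of myeloid cells, was also below it (2.35, 2.16 and 2.20). Leukocyte markers are given further on.

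Phosphofructokinase was represented by all 3 of its genes. Pfkl, the liver-type subunit, was at 6.61, 6.85 and 7.07, and Pfkm, the muscle-type subunit, at 6.49, 6.68 and 6.49, with an identical deposited value in mice 1 and 3. Pfkp, the platelet-type subunit, was higher in mouse 2 at 7.22 than in mice 1 and 3 at 6.54 and 6.51, a range of 1.63-fold. No other Pfkp probe set passed the background rule, and without mouse 2 the range was 1.02-fold. Pfkm and Pfkp were thus highest in mouse 2, and Pfkl in mouse 3. Among the bifunctional enzymes that set the level of fructose 2,6-bisphosphate, the activator of phosphofructokinase, Pfkfb3 was at 6.67, 7.09 and 7.05. Pfkfb2 was at 4.21, 4.30 and 4.74. Pfkfb4 lay just above background (2.98, 2.98 and 3.08) and is the member nearest to the threshold from above.

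Aldolase and the triose steps had a median SD of 0.068 over their 4 genes above background. Aldoa, the aldolase of most tissues, was at 12.06, 12.09 and 12.05 (SD 0.022), and 5 of its probe sets were above background. Tpi1, which encodes triosephosphate isomerase, was at 10.62, 10.50 and 10.46. Pgk1, the phosphoglycerate kinase gene, was at 10.54, 10.72 and 10.50, and Pgam1, the phosphoglycerate mutase gene, at 10.40, 10.47 and 10.41. The widest of these, Pgk1, spanned 1.17-fold over the mice. Pkm, the pyruvate kinase gene of non-hepatic tissue, was at 8.17, 8.37 and 8.20.

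Isozyme genes tied to particular tissues were mostly not detected in the same steps. Aldoc, the brain aldolase, and Pgam2, the muscle mutase, were below background in all mice, with means of 1.85 and 2.41. Eno3, the muscle enolase, was above it at 3.92, 4.33 and 4.08. Eno2, the neuronal enolase, passed in mouse 1 alone (2.96, 2.31 and 2.38) and is the only member with mixed calls. Of 10 muscle and neuron markers 9 were below background in every mouse. A probe set under the threshold does not show that a transcript is missing, because probe sets can bind poorly.

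Gapdh, the glyceraldehyde phosphate dehydrogenase gene, was read by the 3 control probe sets of the array alone, since the annotation gives its other probe sets the symbols of pseudogenes as well. These sit at the 3′ end, the middle and the 5′ end of the transcript. The 3′ probe set was at 11.56, 11.55 and 11.64 in mice 1, 2 and 3. The middle one was at 10.52, 10.19 and 10.33, and the 5′ one at 11.08, 10.46 and 10.72. Toward the 5′ end, values were therefore higher in mouse 1, by 0.62 over mouse 2. The 3′ minus 5′ difference was 0.48, 1.08 and 0.92, and the matching difference for actin, a further sign of RNA quality, was 1.49, 1.81 and 2.05. The choice of probe set thus changed which mouse was highest for Gapdh.

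The lactate dehydrogenase genes differed in their spread. Ldha, which encodes the M subunit that favours lactate formation, was at 10.12, 10.03 and 9.98 in mice 1, 2 and 3, a range of 1.10-fold. Ldhb, which encodes the H subunit of oxidative tissue, was at 9.98, 11.22 and 10.78. Mouse 1 was the lowest and mouse 2 the highest, 2.37-fold apart, and the SD of 0.63 lay above that of 96.2% of all genes tested. Its adjusted p in limma's test was 0.71, and 0.55 to 0.96 over the alternatives. All 4 probe sets of Ldhb gave that order, at 8.98, 10.14 and 9.59 for the second, 8.73, 9.94 and 9.41 for the third and 8.52, 9.69 and 9.02 for the fourth, with ranges of 2.24-fold to 2.37-fold. They are versions of 1 transcript and not independent replicates. The Ldhb minus Ldha difference within an array was −0.14, 1.19 and 0.80, so the balance of their signals shifted by 1.33 between mice 1 and 2. Without mouse 1 the range of Ldhb was 1.36-fold, and without mouse 2 it was 1.75-fold.

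Genes of the loop of Henle and distal tubule mostly had the order of the mice seen for Ldhb. Of 12 such markers 11 had a probe set and 6 were above background in all mice. All 6 had a 2-fold range, and 5 of the 6 had the order mouse 1, mouse 3, mouse 2 from low to high that Ldhb had. That order together with a 2-fold range was found in 1.44% of all genes. The exception was Calb1, a calcium-binding protein gene of the distal tubule, at 3.80, 3.64 and 5.55, highest in mouse 3. Cldn16, which encodes a thick ascending limb claudin, was at 3.92, 6.32 and 4.47, and Kcnj1, a potassium channel gene, at 6.36, 8.67 and 7.52. Umod, the uromodulin gene, was at 12.47, 13.56 and 13.06. The Ldhb minus Umod difference was −2.49, −2.34 and −2.27, a range of 0.21. For Slc12a1, another marker of the list, the range of such a difference was 0.38, for Kcnj1 1.06 and for Cldn16 1.41. On a linear scale the 11 markers summed to 6895, 15919 and 10657 in mice 1, 2 and 3, and most of each sum was Umod. Fxyd4 and Scnn1b of the collecting duct were below background in all mice, and Slc12a3, Aqp2 and Aqp3 in some. The hybridisation controls of bacterial and phage origin, 18 probe sets, were also all highest on the array of mouse 2. The part of distal tubule RNA, and of the array of mouse 2, in the spread of Ldhb was not tested. In RNA from a mixed isolate, fewer cells of a type and less RNA in each cell cannot be told apart.

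**Figure D2:**
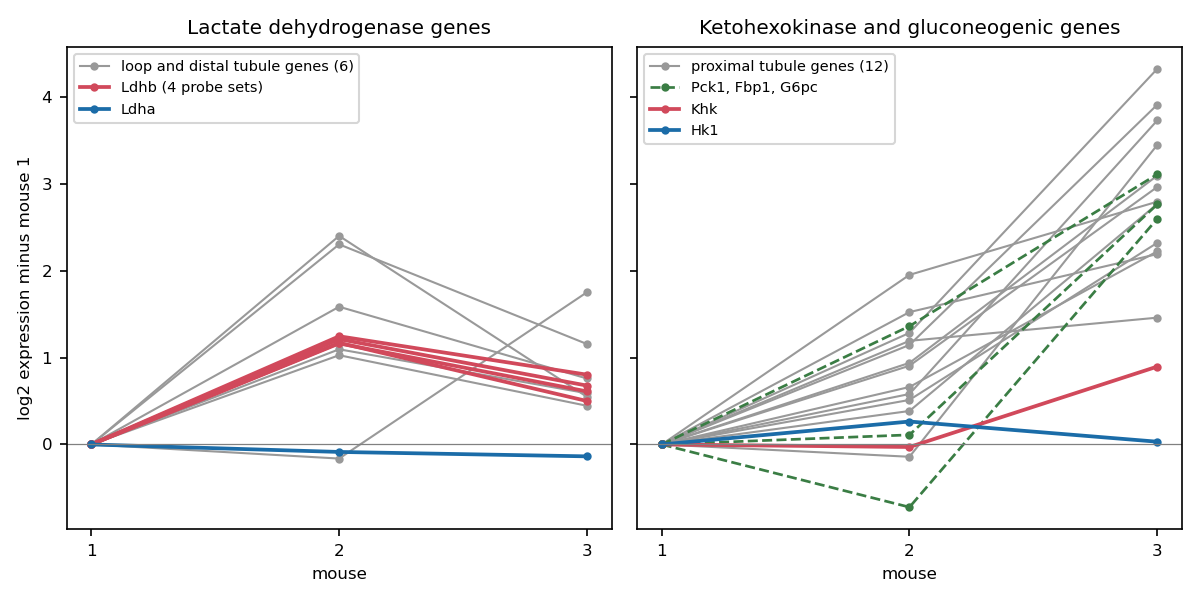
Each line follows 1 gene or probe set over mice 1 to 3 (horizontal) as log2 expression minus its value in mouse 1 (vertical), for lactate dehydrogenase genes with 6 loop and distal tubule markers (left) and for Khk and gluconeogenic genes with 12 proximal tubule markers (right). The 4 Ldhb lines peak in mouse 2 as 5 of 6 distal markers do, Ldha stays near 0, and Khk is highest in mouse 3, by less than the proximal tubule markers.

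The pyruvate dehydrogenase genes and their kinases all spanned less than 2-fold. Pdha1, the alpha subunit of the enzyme, was at 10.65, 10.63 and 10.56, and by its second probe set at 5.59, 5.28 and 5.15, a range of 1.36-fold. Pdhb, the beta subunit, was at 10.02, 10.07 and 9.93. Among the kinases that switch it off, Pdk1, a hypoxia-responsive form, was at 4.64, 4.87 and 5.15 and Pdk2, the most widely expressed form, at 5.43, 5.35 and 5.86, both highest in mouse 3. Pdk3 ran the other way (6.09, 5.99 and 5.87). Pdk4, the form induced by fasting and glucocorticoids, was at 6.10, 5.85 and 6.16, a range of 1.24-fold. Mouse 2 was lowest and mouse 3 highest for Pdk4, as for the glucocorticoid-induced gene Fkbp5, at 8.27, 7.75 and 10.12, which spanned 5.16-fold. Zbtb16 and Angptl4 had that order too, while Per1 of the same list was lowest in mouse 1 and highest in mouse 2 (8.34, 9.66 and 9.27). The order of Pdk4 was found in 18.6% of all genes above background. With the mean over its probe sets the SD of Fkbp5 was 0.52, against 1.24. Fkbp5 belongs to a list of 12 fasting and glucocorticoid genes, of which 10 were measured above background and 4 (Zbtb16, Fkbp5, Angptl4 and Per1) spanned 2-fold or more. Like the others, the list was drawn up with earlier results of these arrays known, so this count is only a description.

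The 4 pentose phosphate genes had SDs from 0.0084 to 0.15. Tkt, the transketolase gene, was at 11.58, 11.81 and 11.71, and Taldo1, the transaldolase gene, at 10.29, 10.18 and 9.998. Pgd, the phosphogluconate dehydrogenase gene, was at 9.75, 9.77 and 9.77, the smallest spread of any member by the probe set that stood for each. With the mean over probe sets the SD of Pgd was 0.051, above that of Aldoa at 0.014. Pgls, whose product opens the lactone ring, was at 7.40, 7.39 and 7.23. Among 9 other genes of the branch 6 were above background and none had a 2-fold range. Tktl1 and Tktl2, the transketolase-like genes, were below background in every mouse.

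In the hexosamine branch the probe sets of Ogt gave 1 order of the mice. Ogt encodes the transferase that places O-linked N-acetylglucosamine on proteins, and its probe set of highest signal was at 10.38, 10.69 and 10.27 in mice 1, 2 and 3. The other 3 probe sets above background were at 7.69, 8.00 and 7.31, at 6.06, 6.49 and 5.51, and at 4.40, 4.73 and 4.17. All 4 were highest in mouse 2 and lowest in mouse 3, with ranges from 1.34-fold to 1.97-fold. The gene for the opposing hydrolase, listed on the array as Mgea5 and also called Oga, followed the same order at 10.74, 11.06 and 10.64. These differences stayed under 2-fold. Another Ogt probe set, below background in mouse 3, had the same order at 3.20, 3.86 and 2.60, a range of 2.39-fold. By the probe set of highest signal Ogt's adjusted p in limma's test was 0.97.

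The enzymes that supply the sugar nucleotide spanned less than 2-fold by the probe set that stood for each. Gfpt1, the rate-limiting transaminase, was at 9.45, 9.53 and 9.38, and its relative Gfpt2 at 4.17, 4.69 and 4.43, a range of 1.44-fold. Gnpnat1, an acetyltransferase gene, was highest in mouse 3 by its main probe set (7.73, 7.87 and 7.95) and highest in mouse 1 by another (6.34, 5.78 and 5.64). Uap1, which makes the final sugar nucleotide, was at 8.78, 8.82 and 8.98. For Uap1 3 of the 4 probe sets above background were highest in mouse 3. For Gnpnat1 no order of the mice can be given, since its probe sets oppose each other.

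Txnip, too, differed by probe set. Its main probe set was at 12.62, 12.69 and 12.43, a range of 1.20-fold with an SD of 0.14. The second probe set was at 8.18, 7.90 and 7.22, a range of 1.94-fold. Both were lowest in mouse 3, but they differed on the highest mouse. Arrdc4, a paralogue that answers to the same sugar-sensing factors, was at 7.89, 8.54 and 8.17, so it did not share Txnip's lowest mouse. Arrdc3, from the same list of glucose-responsive genes, was lowest in mouse 3 as Txnip was (10.39, 10.91 and 10.35). The gene for the factor MondoA, Mlxip, was at 7.75, 8.16 and 8.83, a range of 2.11-fold, and that for ChREBP, Mlxipl, was below background.

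**Figure D3:**
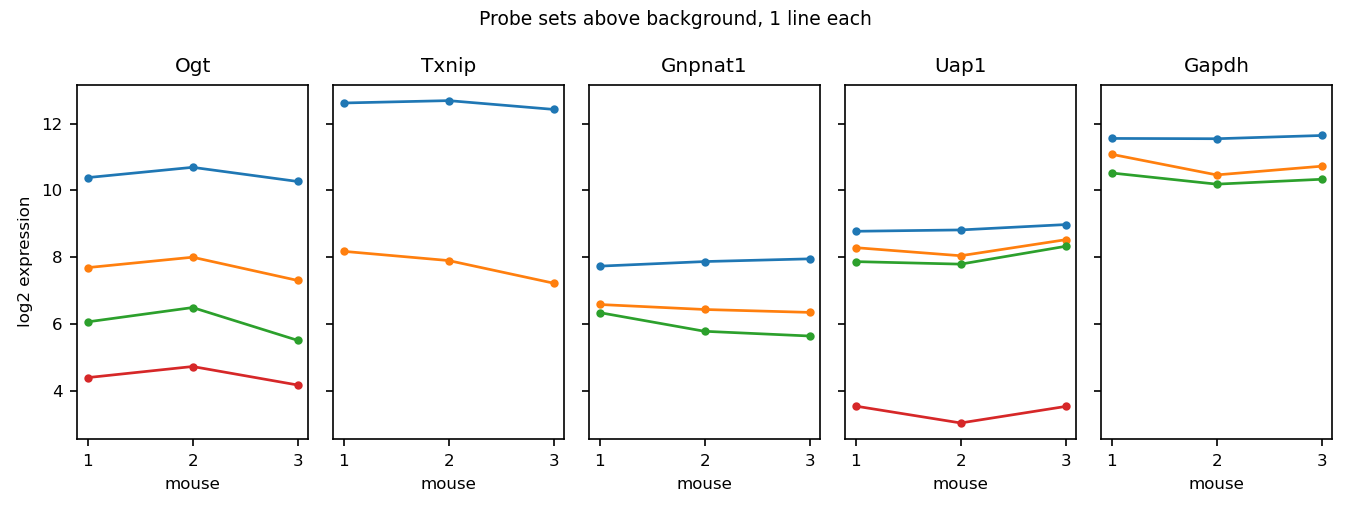
Log2 expression (vertical) by mouse (horizontal) for the probe sets above background of Ogt, Txnip, Gnpnat1, Uap1 and Gapdh, with 1 line per probe set. The 4 Ogt lines share 1 shape, while lines of Txnip, Gnpnat1, Uap1 and Gapdh differ in which mouse is highest.

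Over the 14 members with several probe sets above background, 5 (Pfkl, Pgk1, Ldhb, Pdha1 and Ogt) had the same highest and lowest mouse by every such probe set. For the other 9 the order of the mice rested on the probe set. Hk1, Aldoa, Tpi1, Pgd and Tkt belong to these, with ranges of at most 0.27 in any probe set above background. Among the 5 with agreement, Pfkl and Pdha1 had only 2 such probe sets each. The matching share over all genes was not counted, so 5 of 14 is only a description.

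Khk, the member with the second largest SD, was highest in mouse 3. It encodes ketohexokinase, which phosphorylates fructose and is abundant in the proximal tubule, and was at 4.59, 4.57 and 5.49 in mice 1, 2 and 3, a range of 1.90-fold. Without mouse 3 the range was 1.02-fold. Limma's adjusted p was 0.97. Proximal tubule markers were all highest in mouse 3: of 14 listed, 13 had a probe set, 12 passed the background rule, and all 12 of these spanned 2-fold or more. The 13 with a probe set summed on a linear scale to 1936, 3155 and 11345, and most of each sum was the gene of highest signal. Miox, a gene of inositol breakdown in that segment, was at 4.198, 5.48 and 8.52, so it spanned 20.04-fold. Of this list only Slc22a6 was not above background in all mice. The order of mice 1 and 2 for Khk turned when arrays were centred on their median. The part of proximal tubule RNA in the value of Khk was not tested.

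Lists of 101 other genes covered related enzymes and transporters, regulators, hypoxia-inducible genes and the fasting and glucocorticoid genes. Of the 101, 92 had a probe set, 76 were above background, and 13 of these (17.1%) had a 2-fold range, against 5.94% of all genes, with 9 of the 13 highest in mouse 3. Without the fasting and glucocorticoid list, a count added after the data were seen, it was 9 of 66 (13.6%), 6 of them highest in mouse 3. None was called by limma's variance test after adjustment. Without mouse 3, 6 of all the listed genes had a 2-fold range, and the share of all genes with one fell as well, to 2.97%. The lists were drawn up with earlier results of these arrays known, so these counts are only a description. The share highest in mouse 3 among all genes with a 2-fold range was not counted. The 3 with the widest range among glycolytic and gluconeogenic genes above background in all mice were enzymes of glucose production, which in the kidney belongs to the proximal tubule. Pck1, the phosphoenolpyruvate carboxykinase gene, was at 7.22, 6.50 and 9.82. Fbp1, the fructose bisphosphatase gene, was at 6.91, 8.28 and 10.02, and G6pc, the glucose 6-phosphatase gene, at 4.80, 4.91 and 7.57. Each was highest in mouse 3, by 6.79-fold to 9.99-fold over the lowest mouse by their probe sets of highest signal. Proximal tubule markers were highest there as well (summed level 11345, against 1936 and 3155). Pck1 was lowest in mouse 2, while 11 of the 12 proximal tubule markers above background were lowest in mouse 1. The part of proximal tubule RNA in the values of these 3 genes was not tested. With the mean over its probe sets the SD of Pck1 was 0.70, against 1.75. Monocarboxylate transporter gene Slc16a7 instead had the order of Ldhb (3.87, 5.97 and 4.93), and glucose transporter gene Slc2a3 was highest in mouse 1 (6.56, 4.77 and 5.29).

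Leukocyte markers were highest in mouse 1 for 7 of 8 genes above background, of 12 listed, and summed to 1572, 853 and 462. Cd3e, Itgam and Cd68 were below background in all mice. All 7 podocyte markers with a probe set were above background with no 2-fold range and summed to 51075, 51764 and 47784. The same held for 10 of 10 endothelial markers, and 8 of 9 mesangial ones were above background with no 2-fold range either, so markers of the labelled tissue were present in every mouse. Markers of smooth muscle (5 above background), parietal epithelium (3) and erythroid cells (2) had no 2-fold range. Of the hypoxia-inducible genes outside the members, 9 of 11 with a probe set were above background and Ddit4 alone had a 2-fold range (6.49, 7.39 and 6.19).

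By count, 16 of the 33 members were highest in mouse 2, against 28.6% of all genes, 6 in mouse 1, against 35.1%, and 11 in mouse 3, against 36.3%. When the probe sets of a gene were averaged, the counts of 32 members became 13, 12 and 7 in mice 1, 2 and 3. Mouse 2 then no longer had the most, while the share of all genes highest in mouse 2 was 28.6%. With arrays centred on their median the members' counts were 4, 19 and 10 in mice 1, 2 and 3, and the share of all genes highest in mouse 2 was 38.7%. The median difference of mouse 2 from the other mice was 0.04 for the members and −0.02 for all genes.

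**Figure D4:**
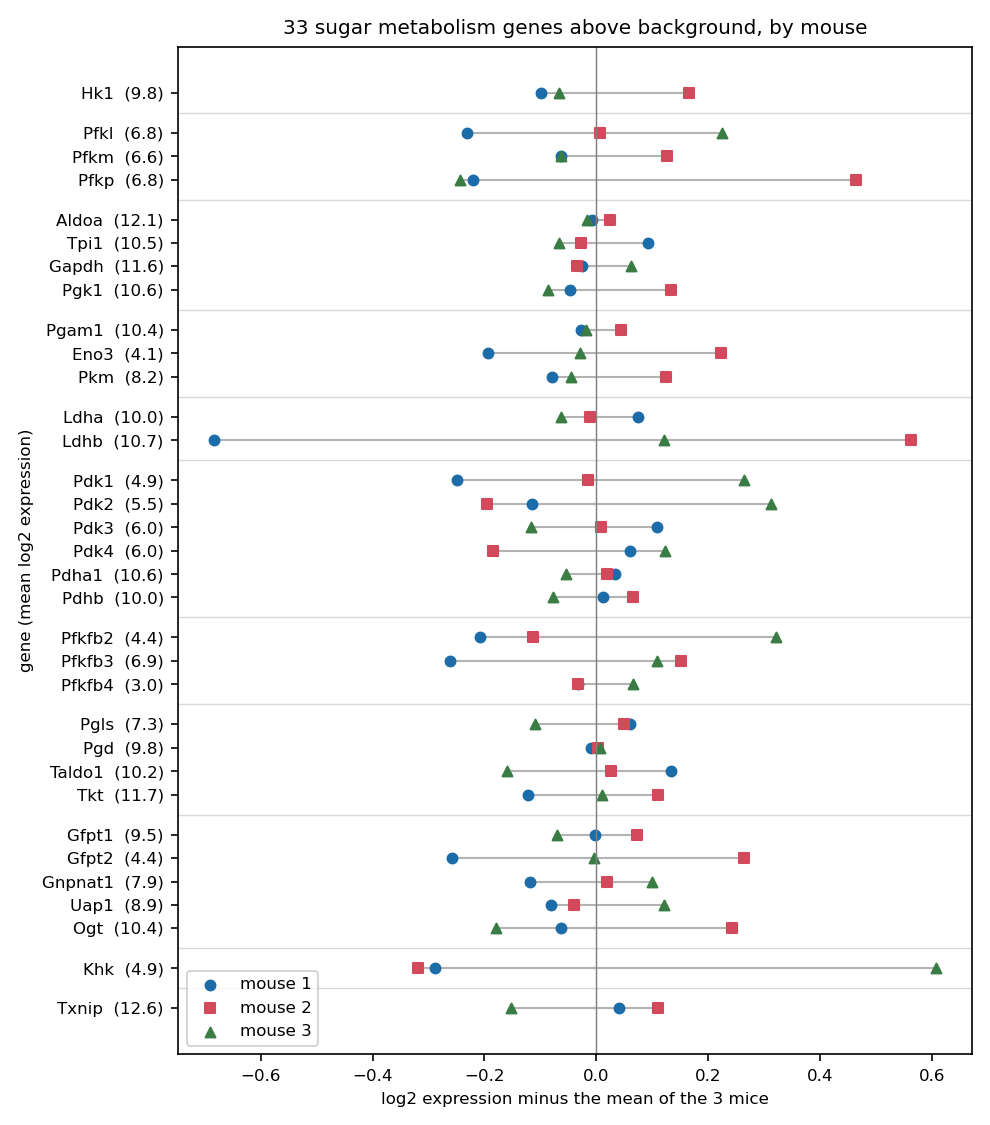
Log2 expression of each of the 33 genes minus its mean over the 3 mice (horizontal), with genes grouped by step of the pathway and their mean in brackets (vertical), and 1 symbol per mouse. Ldhb (mouse 1 low, mouse 2 high), Khk (mouse 3 high) and Pfkp (mouse 2 high) reach farthest from their means, with SDs of 0.63, 0.53 and 0.40.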

How the data were processed

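The authors' deposited values were taken to be log2 expression because they run from 0.67 to 14.76. The authors used GCRMA, per the submitters' processing notes, with no version named. GCRMA normalises arrays to each other, so array medians are close by construction (2.82, 2.85 and 2.82). Of 45101 probe sets, 34958 had 1 gene symbol, 932 several and 9211 none in the platform annotation, and 34754 matched the GRCm38.p6 gene table. Between 2.18% and 2.49% of probe sets had identical values on a pair of arrays, which lowers an SD. There were 0 unused columns of per-sample values.

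The number of arrays and the signal over background limit precision. Genes above background on all 3 arrays entered limma 3.58.1 (R 4.3.3), with a trend on level and a robust fit. Each variance was set, one-sided, against the fitted scaled F distribution, with Benjamini-Hochberg adjustment over 10610 genes at 0.05. The script was tested on simulated data. Every member is named, and values by mouse are given for members with a wide range, a high level in their step or discordant probe sets. Outside the members, up to 3 genes per list were to be named for their 2-fold range. Others named (Umod, Slc12a1, Mgea5, Arrdc3, Arrdc4, Mlxipl, Slc16a7, Slc2a3 and Per1) were added after their values were seen. Tktl1, Tktl2, Fxyd4, Scnn1b, Slc12a3, Aqp2, Aqp3, Slc22a6, Cd3e, Itgam and Cd68, named for their background call, fell outside that rule too. Members and lists were chosen with earlier results of these data known. Alternatives covered the threshold, the probe set, normalisation, the variance prior and each mouse left out.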

Additional observations from a re-analysis of the deposited data

How the results depend on the processing

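The count of members above background was 32 or 33 where an alternative kept a background rule, and 0 members were called for excess variance under any alternative. Their median SD was below that of all genes under every alternative. The gap was narrower with arrays centred (0.143 against 0.158) and without mouse 1 (0.120 against 0.128) than in the main setting (0.12 against 0.16). All 545 pairs of named gene and alternative kept the same side of the test's threshold, which says nothing of stability with 3 arrays. The count of members with a 2-fold range was 0 to 1 with a mouse left out. The counts of members highest in a mouse depended on the probe set rule, the filter and, for the share of all genes highest in mouse 2 (28.6% or 38.7%), centring. With no filter on dim genes 10 of 38 members were highest in mouse 1, against 6 of 33. The members that entered were the dim ones, of which Hk3, Aldoc, Pgam2 and Eno2 were highest in mouse 1 and Hk2 in mouse 3. With the mean over probe sets 13 of 32 members were highest in mouse 1 and 7 in mouse 3, against 6 and 11 of 33. The cause of that second shift was not tested. The count of other pathway genes with a 2-fold range was 6 to 10 with a mouse left out, against 13. Among all genes the share with a 2-fold range fell too, to between 2.97% and 3.43%, against 5.94%. No paired analysis was possible because the series as used here has 1 group.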
